A study of Mus musculus with 8 samples.

Results

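*Adgrg1*, *Cxxc4*, *Pax9*, *Twf2*, *Impdh1*, *Pde3a*, *Olfr65* and *Ikzf1* are 8 genes whose read counts were lower after withdrawal of doxycycline (Dox) than on Dox in mouse pancreatic ductal adenocarcinoma (PDAC) cells, both under the TGFβ receptor inhibitor SB505124 and under TGFβ1. They were picked by name for that pattern, so their lower levels without Dox are described here. Calls of them for Dox withdrawal are no test of it. They are 8 of 53465 genes in the count table and 8 of the 14301 genes with enough reads to test, and all 8 passed the filter on low counts, *Olfr65* and *Pde3a* through their Dox-on libraries alone. Under both treatments 49 tested genes were called lower without Dox, 8 of them these genes and 41 others, and what set the 8 apart from the 41 was not part of the rule.

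Polyadenylated RNA was sequenced from cultured cells of 2 lines named B73 and B87. Each line came from the pancreatic tumor of 1 *Ptf1a*-Cre mouse. The mice carried a *Rosa26* LSL-rtTA3-IRES-mKate2 allele and, in the *Col1a1* locus, a GFP-linked shRNA against *Smad4*. *Ptf1a*-Cre, which acts in pancreatic epithelium, switches on the rtTA3 transactivator, and rtTA3 drives the shRNA while Dox is present. All 8 libraries share these alleles, and which of the study's *Smad4* shRNAs each line carries is not given in the sources used here. Dox-on cells (Smad4 off) were kept on Dox, and Dox-off cells (Smad4 on) spent 5 days without it before plating. From 24 h after plating, each was treated for 24 h with 100 pM TGFβ1 or 2.5 µM SB505124. Each of the 4 groups held 1 culture of each line (n = 2). With the line in the model, constant differences between the lines are taken out. The p-values then measure how far the changes differed between these cultures, which may be partly technical. Dox withdrawal and *Smad4* restoration go together in every library, and their parts in any change cannot be told apart.

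The 8 libraries held 18389235 to 23440550 assigned reads. Levels are CPM (counts scaled to library size) after TMM scaling, and 3 counts, the floor used here, equal 0.125 to 0.162 CPM. Intervals for ratios of small counts cover counting error only. Bounds against this floor take the higher count as exact and leave out its counting error. *Smad4* itself stood at 33.7 to 35.5 CPM in the 4 Dox-on libraries and at 97.4 to 117 CPM in the 4 Dox-off libraries. All 10 ductal epithelial markers were tested, with a summed level of 1250 to 6270 CPM across libraries. The sum was 1.68 to 7.19 CPM for 15 hematopoietic, 5.24 to 66.5 CPM for 9 fibroblast and 0.756 to 26.1 CPM for 7 endothelial markers. The ductal markers were uneven, as *Epcam* had at most 39 counts in any library and *Cldn4* had 0 under SB505124. *Krt7* had at most 577 counts in B87 libraries and at least 9295 in B73 libraries. In these bulk samples fewer cells that express a gene and less RNA per cell cannot be told apart. A gene is called here at a Benjamini-Hochberg adjusted p under 0.05 over all 14301 genes and a change of more than 2-fold in edgeR's quasi-likelihood test, with the line in the model.

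The 8 genes belong to unrelated families. TGFβ receptors signal through SMAD2 and SMAD3, which bind SMAD4 and enter the nucleus, where the complex raises or lowers transcription at CAGAC and GC-rich sites. SB505124 blocks the receptor kinase, so SB505124 and TGFβ1 set the low and the high end of this signal. Dox binds rtTA to switch on the transgene, and as a tetracycline it also inhibits protein synthesis on mitochondrial ribosomes.

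RefSeq promoters of build GRCm38.p6 were matched for 6 of the 8 genes, 9 promoters in all. *Twf2* and *Pde3a* had no match. The 250 bases before the start are shown for genes with large falls, and for *Impdh1* as the gene with the smallest fall. Windows with over 30 bases in annotated exons are not shown, namely that of *Olfr65* (43 bases) and the upstream one of *Adgrg1* (60 bases), which holds 2 CAGAC and 1 GGCGC. The other *Impdh1* window, which holds neither element, is not shown either. Capitals mark 2 elements, each on either strand. CAGAC is the short SMAD-binding element. SMAD proteins also bind the GC-rich element GGCGC. All are written 5′ to 3′ on the strand of the gene. The *Adgrg1* window is chr8:94984149-94984398 (plus strand), inside the gene, and its last 28 bases fall in an annotated exon. The *Cxxc4* window is chr3:134236245-134236494 (plus strand), of which 11 bases fall in an exon. The *Pax9* window chr12:56695221-56695470 (plus strand), both *Ikzf1* windows, chr11:11685675-11685924 and chr11:11689927-11690176 (plus strand), and the *Impdh1* window chr6:29212298-29212547 (minus strand) overlap no annotated exon. These windows also lie inside the annotated bounds of their genes.
Adgrg1: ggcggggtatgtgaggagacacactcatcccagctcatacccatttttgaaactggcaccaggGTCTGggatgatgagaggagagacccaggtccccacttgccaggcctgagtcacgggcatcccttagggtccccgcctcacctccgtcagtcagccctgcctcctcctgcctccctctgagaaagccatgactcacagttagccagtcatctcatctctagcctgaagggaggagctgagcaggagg
Cxxc4: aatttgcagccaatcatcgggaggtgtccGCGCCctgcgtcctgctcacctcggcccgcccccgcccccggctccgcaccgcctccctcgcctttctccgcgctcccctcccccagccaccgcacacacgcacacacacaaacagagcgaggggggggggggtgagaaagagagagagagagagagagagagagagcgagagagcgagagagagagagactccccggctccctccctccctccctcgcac
Pax9: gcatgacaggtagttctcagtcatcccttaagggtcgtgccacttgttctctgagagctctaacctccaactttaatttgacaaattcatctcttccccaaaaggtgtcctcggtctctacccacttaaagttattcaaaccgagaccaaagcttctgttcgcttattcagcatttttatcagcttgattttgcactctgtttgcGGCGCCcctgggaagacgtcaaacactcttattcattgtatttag
Ikzf1, upstream start: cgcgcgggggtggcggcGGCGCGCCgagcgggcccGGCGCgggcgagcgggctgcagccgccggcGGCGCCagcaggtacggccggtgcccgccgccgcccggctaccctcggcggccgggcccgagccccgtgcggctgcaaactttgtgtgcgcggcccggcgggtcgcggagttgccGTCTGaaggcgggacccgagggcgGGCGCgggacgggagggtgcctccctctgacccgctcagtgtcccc
Ikzf1, downstream start: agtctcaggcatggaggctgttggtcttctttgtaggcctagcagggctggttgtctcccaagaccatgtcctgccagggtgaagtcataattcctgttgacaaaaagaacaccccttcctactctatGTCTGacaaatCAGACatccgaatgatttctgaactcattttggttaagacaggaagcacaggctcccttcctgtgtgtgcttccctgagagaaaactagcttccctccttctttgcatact
Impdh1: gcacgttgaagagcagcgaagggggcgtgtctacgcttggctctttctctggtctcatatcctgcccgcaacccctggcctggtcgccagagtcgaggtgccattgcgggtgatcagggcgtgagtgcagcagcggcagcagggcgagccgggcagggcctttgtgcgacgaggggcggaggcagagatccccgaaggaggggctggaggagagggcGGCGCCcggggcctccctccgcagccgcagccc

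The 9 promoters differed in these elements and in base composition. CAGAC was present in 4 of the 9 promoters, those of *Adgrg1* and *Ikzf1*, and in 42.2% of 32851 RefSeq promoters of the same length. GGCGC was present in 5 of the 9, of *Adgrg1*, *Cxxc4*, *Ikzf1*, *Impdh1* and *Pax9*, and in 32.0% of all promoters. The palindrome GTCTAGAC (0.167% of all promoters), which holds neither element in full, and CTATCA, an arm of the tet operator that rtTA binds (6.35%), were in 0 of the 9. GC content ran from 36.8% at *Olfr65* and 43.6% at *Pax9* to 82.0% at the upstream start of *Ikzf1*, against a median of 52.4% over all promoters. That *Ikzf1* window held 44 CpG dinucleotides and 6 GGCGC matches, while the other *Ikzf1* window, at 47.6% GC, held 1 CpG and 2 CAGAC matches. The *Olfr65* window held 0 CpG and none of the 4 motifs. A match describes letters and not a bound site.

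On Dox the 8 genes spanned a wide range of levels per kb of transcript. Under SB505124 the means were 59.0 CPM per kb for *Impdh1*, 49.1 for *Adgrg1*, 30.8 for *Twf2* and 22.7 for *Pax9*, and the lines did not overlap between neighbours in this order. *Olfr65* (2.28), *Ikzf1* (2.21) and *Cxxc4* (1.87) followed at levels whose lines overlapped, and *Pde3a* was lowest at 0.567. Without Dox the order under SB505124 was *Impdh1* (26.1), *Twf2* (12.9), *Adgrg1* (4.81), *Pax9* (4.06), *Ikzf1* (0.289), *Cxxc4* (0.157), *Olfr65* (0.0163) and *Pde3a* (0.00212). The ranges of *Adgrg1* and *Pax9* overlapped in this order, as did those of *Ikzf1* and *Cxxc4*, and *Olfr65* and *Pde3a* were under the floor of 3 counts in every Dox-off library.

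**Figure D1:**
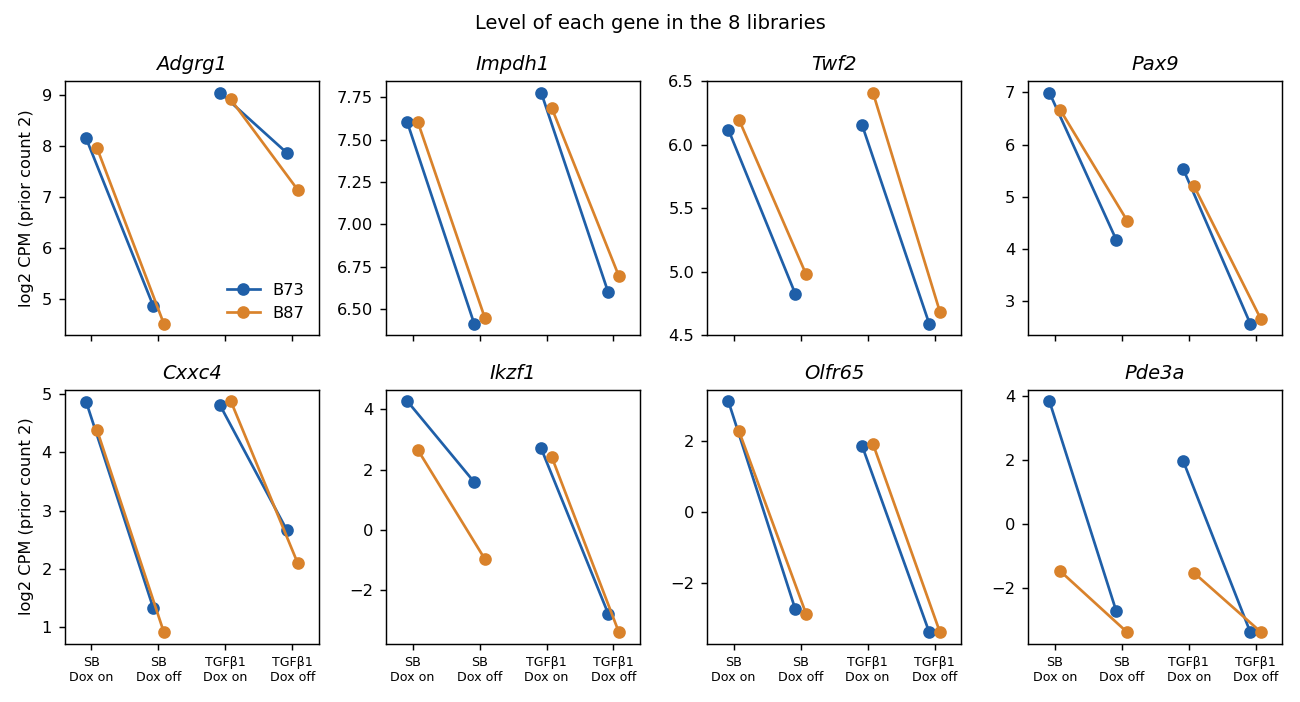
Level of each gene in the 8 libraries, as log2 CPM with a prior count of 2 (vertical axis, own scale per gene), by treatment and Dox state (horizontal axis), with lines joining Dox-on to Dox-off cells of B73 (blue) and B87 (orange). All joining lines slope downward, steeply for *Olfr65*, for *Pde3a* in B73 and for *Ikzf1* under TGFβ1. *Pde3a* in B87 starts from only 6 and 5 counts.

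Under SB505124 the smallest falls were those of *Impdh1* and *Twf2*. *Impdh1* (ENSMUSG00000003500, chr6:29200434-29216364, minus strand) encodes an IMP dehydrogenase, which catalyses the rate-limiting step of guanine nucleotide synthesis. Under SB505124 it had 194 CPM on Dox in both B73 and B87, and 85.0 and 87 CPM without Dox. Under TGFβ1 it had 220 and 206 CPM on Dox, and 96.8 and 103 CPM without. The Dox-on and Dox-off ranges did not overlap, and 43.7% to 50.3% of the Dox-on level was left in the 4 pairs. The fitted log2 change was -1.18 ± 0.081 (SE) under SB505124 and -1.09 ± 0.080 under TGFβ1, the closest of the 8 genes to the 2-fold limit, and in B87 under TGFβ1 the fold alone was 1.99.

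*Twf2* (ENSMUSG00000023277, chr9:106203108-106215389, plus strand) encodes twinfilin-2, which binds actin monomers and caps filament ends. It had 69.5 (B73) and 73.3 CPM (B87) on Dox and 28.3 and 31.5 CPM without Dox under SB505124. Under TGFβ1 these levels were 71.0 and 85.1 CPM on Dox and 24.0 and 25.6 CPM without. The lines lay close together in each group, with 40.7% and 42.9% of the level left under SB505124 and 33.8% and 30.1% under TGFβ1. The fitted log2 change was -1.26 ± 0.092 and -1.65 ± 0.093 (SE).

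*Adgrg1* (ENSMUSG00000031785, chr8:94974751-95014217, plus strand) encodes GPR56, an adhesion G protein-coupled receptor that binds collagen III. Under SB505124 it had 283 CPM in B73 and 249 CPM in B87 on Dox, and 29.3 and 22.9 CPM without. Under TGFβ1 it had 526 and 479 CPM on Dox, and 232 and 141 CPM without. The Dox-off cells under TGFβ1 thus lay below the Dox-on cells under SB505124, and above the Dox-off cells under SB505124. The share left was 10.4% and 9.17% under SB505124, but 44.1% and 29.4% under TGFβ1.

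*Cxxc4* and *Pax9* are the developmental regulators of the group. *Cxxc4* (ENSMUSG00000044365, chr3:134236484-134262161, plus strand) encodes a CXXC zinc finger protein that inhibits Wnt signaling through Dishevelled. It had 29.2 and 20.9 CPM on Dox and 2.43 and 1.79 CPM without under SB505124, in B73 and B87. Under TGFβ1 it had 27.9 and 29.4 CPM on Dox and 6.23 and 4.18 CPM without. The Dox-on ranges overlapped between treatments, and the Dox-off libraries were higher under TGFβ1 in both lines. The share left was 8.34% and 8.55% under SB505124 and 22.3% and 14.2% under TGFβ1.

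*Pax9* (ENSMUSG00000001497, chr12:56691767-56712822, plus strand) encodes a paired-box transcription factor of foregut and tooth development. Under SB505124 it had 128 (B73) and 102 CPM (B87) on Dox, and 17.9 and 23.2 CPM without. Under TGFβ1 it had 45.9 and 36.7 CPM on Dox, and 5.82 and 6.17 CPM without. *Pax9* was lower under TGFβ1 in each Dox state, and its remaining share, 14.0% and 22.8% under SB505124 and 12.7% and 16.8% under TGFβ1, overlapped between the treatments.

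*Ikzf1* (ENSMUSG00000018654, chr11:11685003-11772926, plus strand) encodes Ikaros, a zinc finger transcription factor best known in lymphocytes. Under SB505124 its counts were 387 (B73) and 141 (B87) on Dox and 54 and 10 without, which left 15.1% and 6.72% of the CPM level. Under TGFβ1 they were 150 and 105 on Dox and 1 and 0 without. *Ikzf1* thus kept reads without Dox under SB505124 in both lines, while under TGFβ1 it was under the floor. In B73 under TGFβ1 it was 126-fold lower (95% counting interval 22.3 to 5010) and in B87 at least 34.2-fold lower. Of the 15 hematopoietic markers, *Cd3e*, *Adgre1* and *Tyrobp* had 0 counts in all 8 libraries, and *Cd68* alone was tested and was not called. *Ptprc*, which encodes CD45, had at most 3 counts. Their summed level was 2.64 to 7.19 CPM in Dox-on and 2.75 to 4.16 CPM in Dox-off cells under SB505124, and 2.79 to 3.69 and 1.68 to 2.19 CPM under TGFβ1.

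*Pde3a* (ENSMUSG00000041741, chr6:141249269-141507448, plus strand) encodes a phosphodiesterase that degrades cAMP and is inhibited by cGMP. Its counts on Dox were 284 in B73 and 6 in B87 under SB505124, and 88 and 5 under TGFβ1. Without Dox they were 1 and 0 under SB505124 and 0 and 0 under TGFβ1. The fall was therefore measurable mainly in B73, where it was 262-fold under SB505124 (95% counting interval 46.7 to 10400) and at least 24.6-fold under TGFβ1. In B87 the folds against the floor were 2.11 under SB505124 and 1.63 under TGFβ1. With 6 and 5 counts on Dox, counting error is too large for these to bound the fall.

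*Olfr65* (ENSMUSG00000110259, chr7:103903487-103908650, plus strand) encodes an olfactory receptor, a family expressed chiefly in olfactory sensory neurons. It had 173 (B73) and 108 counts (B87) on Dox and 1 and 1 without under SB505124, and 82 and 74 on Dox and 0 and 0 without under TGFβ1. Under SB505124 it was 160-fold lower in B73 (95% counting interval 28.3 to 6350) and 114-fold lower in B87 (20.0 to 4550), and under TGFβ1 at least 22.9-fold and at least 24.1-fold lower. Of 1105 other *Olfr* genes 98 had any count, 4 were tested and no library held more than 69 counts of any. Within 500 kb of *Olfr65* there were 42 of them, of which *Olfr631* and *Olfr632* were tested. *Olfr632* was also called lower without Dox under both treatments, with 3.44 and 1.1 CPM on Dox under SB505124, 1.54 and 1.25 CPM under TGFβ1, and 0 in all 4 Dox-off libraries. Of the 75-base stretches of *Olfr65* transcripts, 0.14% occur in another gene's transcripts.

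**Figure D2:**
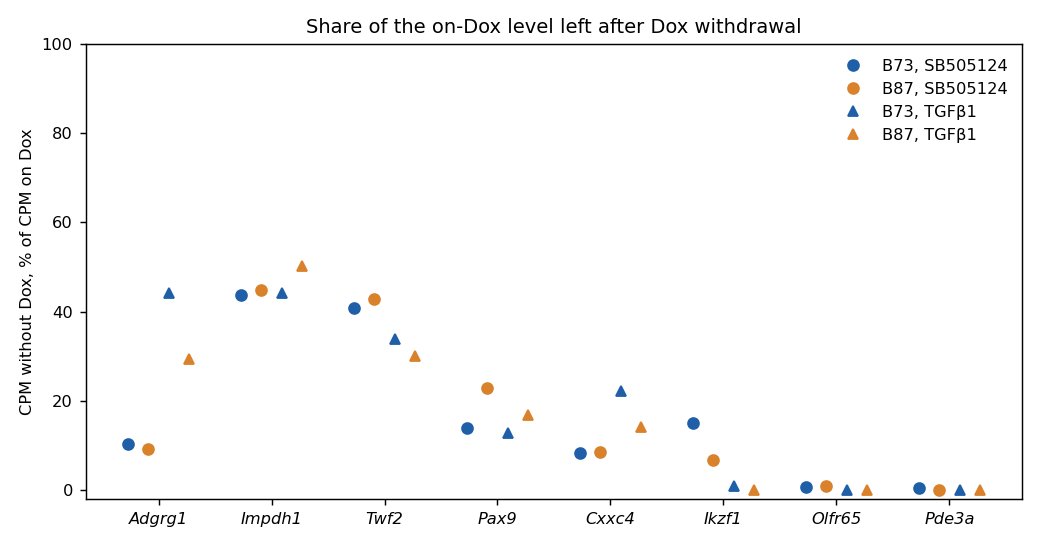
Share of the Dox-on CPM left after Dox withdrawal (vertical axis, percent), by gene (horizontal axis), line (blue B73, orange B87) and treatment (circles SB505124, triangles TGFβ1), 1 point per pair of libraries. *Impdh1* and *Twf2* keep 30.1% to 50.3%, and *Adgrg1* is the gene whose circles and triangles lie furthest apart. Pairs with 0 counts without Dox are drawn at 0, although 3 counts would allow more, most of all for *Pde3a* in B87.

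Over all tested genes the median log2 change without Dox was 0.0028 under SB505124 and -0.0073 under TGFβ1. Over the 8 genes it was -3.2 and -2.64, or -2.58 under TGFβ1 with the genes at 0 set to their bound. All 8 genes were called lower under each treatment, where 0.455% of tested genes were called lower and 0.636% higher under SB505124, and 1.8% lower and 1.31% higher under TGFβ1. These counts follow from how the genes were picked. Neither they nor the calls in the other fits below test the falls. CPM fell in all 4 pairs of libraries for 2142 tested genes (15.0%). In edgeR with no replicate block, that is with the pairing by line left out, 1 of the 8 genes was called under SB505124 and 5 under TGFβ1. The count was 5 under SB505124 without the Dox-off B73 library, since *Pde3a*, *Olfr65* and *Ikzf1* missed. *Ikzf1* was the least stable of the 8, as it missed under SB505124 in 6 of 8 fits that left out a library, and *Pde3a* missed in 2 of 8 under each treatment.

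TGFβ1 was compared with SB505124 within each Dox state, a contrast that the choice of genes did not use although the libraries are the same. In Dox-on cells 1 of the 8 genes was called, where 5.93% of all tested genes were. *Pax9* fell with TGFβ1 by the same amount in both lines, with a log2 change of -1.47 ± 0.176 (SE, edgeR adjusted p 0.00358). *Adgrg1* was higher with TGFβ1 by 0.92 ± 0.143 (edgeR adjusted p 0.00876), in both lines but by less than 2-fold, and it passed 2-fold without the TGFβ1 Dox-on B73 library (1.06) or the SB505124 Dox-on B87 library (1.04). *Pde3a* (-1.57 ± 0.419, adjusted p 0.0635), *Ikzf1* (-0.88 ± 0.451, adjusted p 0.254) and *Olfr65* (-0.84 ± 0.296, adjusted p 0.128) did not pass in edgeR. These values moved with single Dox-on libraries. *Pde3a* was -0.03 and -0.15 without the SB505124 or the TGFβ1 B73 library, and it was called at -1.92 without the SB505124 B87 library (edgeR adjusted p 0.0489). *Ikzf1* was -0.05 without the TGFβ1 B73 library and -1.79 without the TGFβ1 B87 library. *Olfr65* was -0.38 without either B73 library and -1.28 without either B87 library. For *Cxxc4* (0.22), *Twf2* (0.12) and *Impdh1* (0.13) the edgeR adjusted p-values were 0.45, 0.409 and 0.334.

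In Dox-off cells 4 of the 8 genes were called for TGFβ1, where 13.9% of all tested genes were. *Adgrg1* rose by 2.82 ± 0.157 on the log2 scale (SE, edgeR adjusted p 0.0001), by 2.98 in B73 and 2.62 in B87. *Cxxc4* rose by 1.30 ± 0.221 (edgeR adjusted p 0.0051), by 1.32 and 1.18. *Pax9* fell by 1.79 ± 0.203 (edgeR adjusted p 0.000998) and was lower in both lines. *Ikzf1* fell from 54 counts to 1 in B73, 57.2-fold (95% counting interval 9.83 to 2300). In B87 its 10 counts became 0, which is 2.72-fold lower against the floor, with the 10 counts taken as exact. The edgeR adjusted p of *Ikzf1* with both lines was 0.0106. Its adjusted p was 0.053 with no replicate block for the line, 0.0627 without the SB505124 Dox-off B73 library and 0.0891 without the TGFβ1 Dox-off B73 library. *Twf2* (-0.27 ± 0.093, adjusted p 0.0661) and *Impdh1* (0.22 ± 0.080, adjusted p 0.0774) did not pass in edgeR. *Olfr65* and *Pde3a* had at most 1 count in each of these 4 libraries, and no fold is given.

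**Figure D3:**
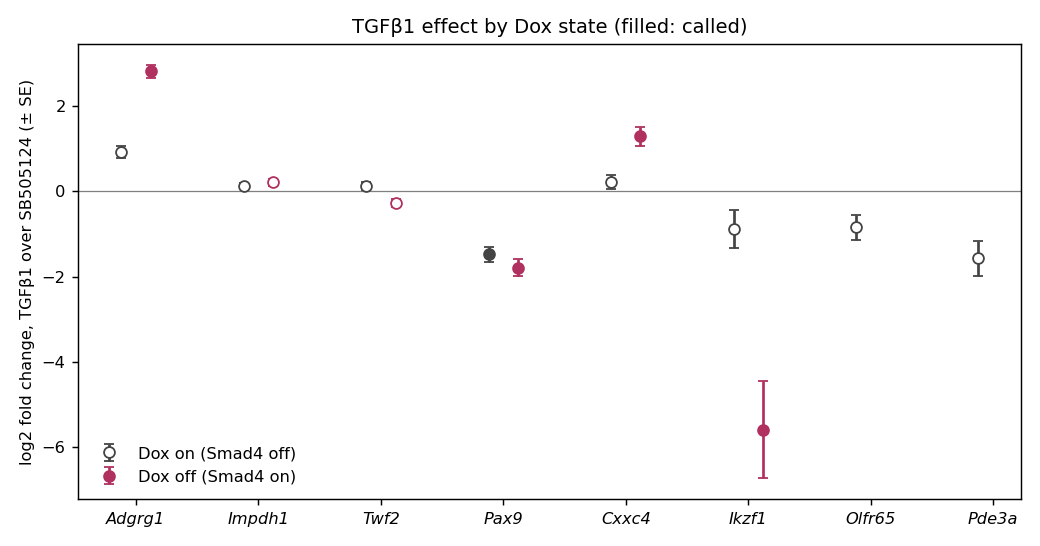
Fitted log2 fold change of TGFβ1 over SB505124 (vertical axis, bars are SE) for each gene, in Dox-on (grey) and Dox-off cells (red), with filled points for called genes. *Pax9* is called in both states at -1.47 and -1.79, *Adgrg1* and *Cxxc4* are called higher in Dox-off cells alone, and *Olfr65* and *Pde3a* have no Dox-off point because their counts were at most 1.

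Whether the change without Dox differed between treatments was tested as an interaction. It compares the 2 changes that the genes were picked on, whose signs the choice fixed, though not their difference. *Adgrg1* was the only one of the 8 genes called, where 0.189% of all tested genes were, with a log2 difference of 1.90 ± 0.207 (SE, edgeR adjusted p 0.038). It fell less under TGFβ1, by 1.18 in B73 and 1.77 in B87, than under SB505124, where it fell by 3.27 and 3.44. With no replicate block for the line its adjusted p was 0.646. The adjusted p was 0.0633 to 0.22 without any of the other libraries in turn except the TGFβ1 Dox-off B87 library, without which it was 0.0168. *Cxxc4* (1.07 ± 0.282, edgeR adjusted p 0.247), *Twf2* (-0.39 ± 0.129, adjusted p 0.333) and *Ikzf1* (adjusted p 0.285) did not pass. For *Impdh1* the difference was 0.09 ± 0.113 and for *Pax9* -0.32 ± 0.266 (edgeR adjusted p 0.845 and 0.751). For *Olfr65* and *Pde3a* the Dox-off counts were too low to measure a difference.

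Between the lines edgeR called 1 of the 8 genes, *Pde3a*, where 8.37% of all tested genes were called. *Pde3a* passed the filter on low counts only through its Dox-on B73 libraries, so its difference is given by counts alone, 284 and 88 in Dox-on B73 cells and 6 and 5 in Dox-on B87 cells. For *Ikzf1* the difference was -1.38 ± 0.394, with lower levels in B87 in the 3 groups above the floor. It did not pass in edgeR (adjusted p 0.0533) and was called in DESeq2 (adjusted p 0.0119). *Adgrg1* had lower values in B87 in all 4 groups and did not pass (-0.35 ± 0.103, edgeR adjusted p 0.0607). The change without Dox, averaged over treatments, was called as different between the lines in 0 of the 8 genes in edgeR and in DESeq2, where 0.392% of all genes were called in edgeR. At an unadjusted edgeR p under 0.05 there were 3, *Pax9*, *Adgrg1* and *Ikzf1*, and 9.85% of all tested genes. The log2 differences, B87 minus B73, were 0.59 ± 0.154 for *Pax9*, -0.40 ± 0.148 for *Adgrg1* and -1.79 ± 0.745 for *Ikzf1* (edgeR adjusted p 0.235, 0.433 and 0.497). The Dox-off counts of *Olfr65* and *Pde3a* were too low to measure such a difference, so these genes could not show one.

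Of the 16 nearest tested genes on either side of the 8, 1 was called under each treatment, where 1.09% and 3.12% of all tested genes were called in either direction. Their median log2 change was -0.05 under SB505124 and -0.27 under TGFβ1. The called neighbour was *Gm30648*, 23.2 kb from *Cxxc4* on the same strand (-3.42, edgeR adjusted p 0.0445 under SB505124, and -2.49, adjusted p 0.0457 under TGFβ1), read chiefly in B87 and with at most 121 counts. *Olfr631*, 20.2 kb from *Olfr65*, had up to 38 counts on Dox and 0 in all 4 Dox-off libraries, and did not pass (edgeR adjusted p 0.108 and 0.0585). *Adgrg3*, an adhesion receptor gene 3.48 kb from *Adgrg1*, had at most 19 counts and did not pass (adjusted p 0.467 and 0.147 in edgeR). *Slc25a21* overlaps *Pax9* on the opposite strand and was called under SB505124 (-3.24, edgeR adjusted p 0.0445) but not under TGFβ1 (-1.49, adjusted p 0.136), with at most 40 counts. The library kit keeps strand, the counting setting is not given in the sources used here, and 2.27% of the 75-base stretches of *Pax9* occur in *Slc25a21* or another gene. This share was 5.27% for *Pde3a*, 1.27% for *Cxxc4* and 0% for *Adgrg1*, *Twf2*, *Impdh1* and *Ikzf1*.

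**Figure D4:**
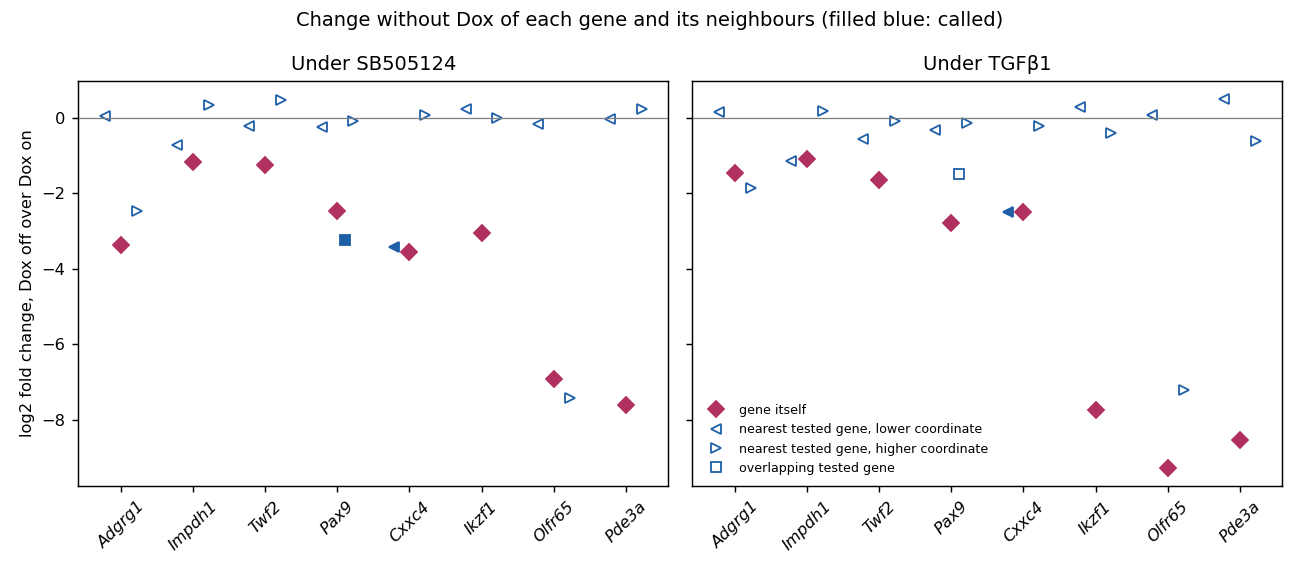
Fitted log2 change without Dox (vertical axis) of each gene (red diamonds) and of its nearest tested genes at lower and higher coordinates (blue triangles) and overlapping tested gene (blue square), under SB505124 (left) and TGFβ1 (right), with filled blue marks for called neighbours. Most triangles lie near 0, and those below -1 are *Gm30648* beside *Cxxc4* and, not called, *Olfr631*, *Adgrg3* and, under TGFβ1, *Prrt4* beside *Impdh1*. For genes with 0 reads without Dox the plotted value depends on the prior count.

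The relatives of the genes were examined in 7 lists of 127 genes, of which 87 were tested. Under SB505124 0 of the 87 were called in edgeR, 20 had an unadjusted p under 0.05, and DESeq2 called 0. Of all tested genes 1.09% were called in either direction, so 0 calls among 87 genes is near the background. An unadjusted p under 0.05 was less common over all tested genes (12.6%) than among the 87. Under TGFβ1 2 were called, both lower, *Celsr2* (-1.40 ± 0.191, edgeR adjusted p 0.00948) among 16 adhesion receptors related to *Adgrg1*, and *Lgr5* (adjusted p 0.0384) among 19 Wnt pathway genes around *Cxxc4*. Over all tested genes 3.12% were called. At an unadjusted p under 0.05 there were 29 of the 87, again a larger share than over all tested genes (23.7%). Neither difference in share was tested. *Lgr5* had 1.41 and 1.15 CPM on Dox and 0.051 and 0 CPM without, under TGFβ1. The tested members of the other lists were 2 PAX genes, 18 actin turnover genes around *Twf2*, 17 purine synthesis genes around *Impdh1*, 12 phosphodiesterases around *Pde3a* and 3 Ikaros family genes. In these 5 lists edgeR and DESeq2 called 0 genes under either treatment, and the list medians lay between -0.43 and 0.40 on the log2 scale. At an unadjusted edgeR p under 0.05 there were 0, 5, 3, 5 and 1 of them under SB505124 and 0, 9, 3, 4 and 0 under TGFβ1.

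Because Dox and *Smad4* changed together, genes linked to each were measured beside the 8. Among 14 tested SMAD feedback and regulator genes, edgeR called *Smad6* higher without Dox under SB505124 (1.17 ± 0.133, adjusted p 0.0122) and *Smad7* higher under TGFβ1 (1.14 ± 0.109, adjusted p 0.00317). Each was called under 1 treatment only. *Smad6* did not pass under TGFβ1 (-0.256, edgeR adjusted p 0.333), and *Smad7* did not under SB505124 (0.586, edgeR adjusted p 0.074). Of the 14 genes, 7 had an unadjusted edgeR p under 0.05 under SB505124 and 8 under TGFβ1. Over all tested genes the shares were lower, at 12.6% and 23.7%, and the difference in share was not tested. Of 13 mitochondrially encoded mRNAs 6 had 0 counts in all libraries. Of the other 7 edgeR and DESeq2 called 0 under either treatment, 4 and 2 had an unadjusted edgeR p under 0.05 (12.6% and 23.7% of all tested genes had), and their median log2 changes were -0.30 and 0.09. Of 15 tested ATF4 stress targets edgeR called 0 under either treatment, 3 and 2 had an unadjusted p under 0.05, and DESeq2 called 1 and 0. *Col1a1*, the host locus of the shRNA cassette, rose without Dox by 2.08 ± 0.248 and 1.78 ± 0.214 (edgeR adjusted p 0.0136 and 0.00656). In B87 it had 25.9 CPM on Dox and 119 CPM without under SB505124, and 161 and 627 CPM under TGFβ1, with at most 5.1 CPM in B73. The 8 genes fell while *Smad4* and *Col1a1* rose, and the parts of Dox itself, of the shRNA and of *Smad4* in the falls cannot be told apart.

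Pearson correlations of log2 CPM over the 8 libraries describe which genes had the most similar pattern. The libraries share 2 lines and 4 groups, so the points are not independent. Among the 28 pairs of the 8 genes, r ran from 0.32 for *Adgrg1* with *Pax9* to 0.974 for *Twf2* with *Olfr65*, with a median of 0.798. All 8 were picked for lower levels without Dox in these libraries, so correlations above 0 follow largely from the choice. Genes most like the mean of the 8 were *Olfr632* (r = 0.996), *Maf1* (0.985), *Olfr631* (0.984), *Stra6* (0.98) and *Ccdc148* (0.976). The closest gene to *Adgrg1* was *Dlgap1* (0.961), to *Cxxc4* *Pkia* (0.981), to *Pax9* *Arrdc2* (0.981) and to *Twf2* *Gstm5* (0.988). For *Impdh1* it was *Ccdc148* (0.991), for *Pde3a* *Tvp23b* (0.976), for *Olfr65* *Olfr632* (0.99) and for *Ikzf1* *Atf6* (0.978). In Dox-off libraries *Olfr65*, *Pde3a*, *Olfr631* and *Olfr632* had at most 1 count, so their log2 values there depended on the prior count. The same held for *Ikzf1* under TGFβ1. Likeness in pattern did not mean likeness in size, since *Atf6* went only from 146 to 129 CPM and *Maf1* from 64.5 to 47.3 CPM in B73 under SB505124.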

How the data were processed

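Total RNA of 8 cultures was polyA-selected and made into stranded libraries, read as 75-bp single ends. The authors deposited 1 table of raw counts per gene (build GRCm38). Per the labels, the submitters' processing notes name Trimmomatic 0.36, STAR 2.5.3a and featureCounts 1.6.3. Samples were grouped by the treatment and Dox state in their titles.

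From the deposited counts, edgeR 4.0.16 (R 4.3.3) gave TMM-scaled CPM (prior count 2 for log2) and quasi-likelihood F-tests after filterByExpr, with 4 groups and the line as terms over all 8 libraries, or the line by Dox term added for the line comparison. p-values were Benjamini-Hochberg adjusted over 14301 genes. DESeq2 1.42.0 was an alternative, as were RLE size factors, no filter, no fold rule, no replicate block, and leaving out each library. The fits without a library kept the 14301 genes.

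The line in each title pairs the libraries. Deviations of the lines correlated at r = 0.642 to 0.774 over 6 pairs of groups. The model was tested on simulated data for TGFβ1 against SB505124 in Dox-on cells (14301 genes, 200 changed by 2 on the log2 scale). It recovered 88% of changed genes, with 4.35% of its calls false. Without the line it recovered 60.5%, with 0% of its calls false. The simulated counts came from the fit with the line and held equal changes in both lines, so this comparison favoured the model with the line.

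The genes, lists and tests were chosen with earlier results of these data known. Named genes are the 8, *Smad4*, up to 4 called genes per list, the nearest or overlapping tested genes, and the genes most correlated with the mean of the 8 and with each. Other genes were named after their values were seen. A ratio with 1 count carries an exact 95% counting interval. For a bound, a level of 0 counts was set to 3 counts and the other count was taken as exact. Fibroblast and endothelial markers (9 and 7 genes) held 4 and 2 tested genes, and *Kdr* alone was called, lower without Dox under TGFβ1. Among ductal markers *Muc1* was called lower and *Cldn4* higher under TGFβ1. Protein sequences were not used here, and some items of the genotype and of the SMAD feedback list are not reported here.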

Additional observations from a re-analysis of the deposited data

Results flagged for a closer look

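*Adgrg1* stood out for a difference between the treatments, in the 2 changes that the genes were picked on. Its fall after Dox withdrawal was smaller under TGFβ1 than under SB505124, with a log2 difference of 1.90 ± 0.207 (SE, edgeR adjusted p 0.038). The difference had the same sign in both lines, and the 10.4% and 9.17% of the Dox-on level left under SB505124 in B73 and B87 did not overlap the 44.1% and 29.4% left under TGFβ1. It missed the threshold in 7 of 8 fits that left out a library.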

How the results depend on the processing

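Over 56 log2 changes of the 8 genes and 656 alternative values, 594 kept their direction and their side of the threshold, 33 lost a call, 11 gained one and 18 changed sign. These totals include the changes for Dox withdrawal, whose direction was fixed by how the genes were picked. An uncalled change counted as kept when it stayed uncalled with the same sign. With 2 cultures a group, calls depended on single libraries. This held for genes with few reads and also for the interaction of *Adgrg1*, which had many reads, and the cause was not tested. With no replicate block (pairing by line left out), edgeR called 2 genes for Dox withdrawal under SB505124 (156 with the line), 36 under TGFβ1 (446), 168 for TGFβ1 in Dox-on cells (848), 1035 in Dox-off cells (1993) and 0 for the interaction (27, with 640 genes at an unadjusted p under 0.05). Of the 8 genes it called 1, 5, 1, 3 and 0, against 8, 8, 1, 4 and 1. With no filter on low counts (27770 genes), it called 403 under SB505124, 783 under TGFβ1, 284 for the interaction and 399 for the Dox by line term (56), of the 8 genes 2 for TGFβ1 in Dox-on cells, 3 for the interaction, 2 between lines and 1 for the Dox by line term. With no 2-fold rule there were 973 under TGFβ1, 1888 and 4751 for TGFβ1 in Dox-on and Dox-off cells, and 2660 between lines (1197), with 2 of the 8 genes for TGFβ1 in Dox-on cells. DESeq2 called 134 for the interaction, 103 for the Dox by line term, and 2 of the 8 genes between lines. Without each library in turn the ranges were 45 to 146 under SB505124, 133 to 442 under TGFβ1, 351 to 873 and 1541 to 2010 for TGFβ1 in Dox-on and Dox-off cells, 0 to 13 for the interaction, 947 to 1127 between lines and 44 to 108 for the Dox by line term. Of the 8 genes they were 5 to 8, 6 to 8, 1 to 3, 3 to 4, 0 to 1, 1 to 2 and 0 to 0. The signs that changed belonged to uncalled values. The interaction of *Pde3a* was 0.37 in DESeq2. Leaving out a library gave -0.072 to 0.50 for *Cxxc4* under TGFβ1 in Dox-on cells, -4.01 to 1.51 for *Pde3a* in Dox-off cells, -2.45 to 3.09 for *Pde3a* and -0.60 to 0.012 for *Pax9* in the interaction, -0.23 to 0.030 for *Pax9*, -0.82 to 0.046 for *Olfr65* and -0.022 to 0.042 for *Impdh1* between lines, and -0.37 to 0.56 for *Olfr65* and -0.13 to 0.048 for *Twf2* in the Dox by line term.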

Other observations

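Among the 41 other genes called lower without Dox under both treatments in edgeR, named here after their values were seen, were the neighbouring collagen IV genes *Col4a3* (log2 change -4.17 under SB505124 and -4.10 under TGFβ1) and *Col4a4* (-3.68 and -4.01), and the Wnt ligand genes *Wnt10a* (-3.34 and -3.44) and *Wnt4* (-1.93 and -3.67). The transmembrane genes *Tmem176a* (-1.20 and -2.02) and *Tmem176b* (-1.25 and -1.96) were also in this set.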
